A study of Mus musculus with 6 samples.

Results

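The mitochondrial carriers of the SLC25 family were examined in mouse embryonic fibroblasts after starvation. These genes encode small membrane proteins, nearly all of the mitochondrial inner membrane, that exchange metabolites such as ADP and ATP, phosphate, amino acids, carboxylates, nucleotides and cofactors between the matrix and the cytosol. Each carrier is built from a repeated structural unit and shuttles its substrate by opening to one side of the membrane at a time. The uncoupling proteins belong to the same family and include Ucp1, which lets protons leak back into the matrix. Members were taken by name from the array annotation: every numbered Slc25a symbol except Slc25a20, the carnitine carrier, together with Ucp1, Ucp2 and Ucp3. Of 49 RefSeq genes that match this rule 34 were measured, out of 12393 genes tested, and the other 15 were not analysed here. The 15 include Ucp2, the citrate carrier Slc25a1, the aspartate/glutamate carrier Slc25a12 and the germ cell ADP/ATP carrier Slc25a31.

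The study compared wild-type MEFs starved for 6 h (labelled MEFs starved) with wild-type MEFs kept in Normal Medium (labelled MEFs CTL, here control), with 3 short-oligonucleotide arrays in each group. MEFs are connective tissue cells grown out of mouse embryos. The labels name no strain, no embryo age and no withdrawn nutrient or serum component, and although the titles number them as biological replicates, they do not say whether these came from separate cultures. If they did not, the spread behind each p-value is that of repeated preparations, possibly a technical one. Levels are log2 array signals, a difference is the starved mean less the control mean in log2 units, and errors of levels are SD (n = 3 arrays per group). Calls are limma tests with Benjamini-Hochberg adjustment over all 12393 genes at an adjusted p of 0.05. The signal is a share of each sample's RNA, so fewer transcripts per cell and a smaller share of expressing cells cannot be told apart.

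The arrays carried the marker genes of fibroblasts. The mean level of 10 fibroblast markers lay between 11.2 and 11.3 in control arrays and was close to 11.6 in each starved array. Of the 10 markers 7 were called higher (70%, against 22.1% of all genes) and 2 lower (20%, against 22.0%). For the markers of blood cells, fat cells, muscle, epithelium and endothelium the list means lay between 3.69 and 5.17 in every array. The fat cell list was lower in starved arrays (4.77 to 5.02, against 5.09 to 5.17), and its member Fabp4 fell by 0.81 (8.49 to 7.68). Pparg was at 7.61 and 7.50, and Adipoq was dim in both groups (3.16 and 3.00). Among markers of other cell types Cdh1 rose by 0.91 (3.44 to 4.36) and Cd68 by 0.44 (5.07 to 5.51). Cd14 fell by 0.46 (7.75 to 7.29). Of 5 endothelial markers, all dim, 2 were called lower (40%, against 22.0% of all genes). The part of these shifts in the results below was not tested.

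Starved fibroblasts had lower levels of many carriers for amino acids and dicarboxylates and higher levels of a small set of others. Of the 34 members 13 fell (38.2%), 4 rose (11.8%) and 17 did not pass the test. Over all genes tested 22.0% were called lower and 22.1% higher, 44.1% in either direction against 50% of the members. The median difference was −0.10 among members and −0.05 among all genes. The groups did not overlap for 20 members (58.8%), against 54.0% of all genes. Slc25a33, a carrier of pyrimidine nucleotides, fell most, and Slc25a28, the iron carrier mitoferrin 2, rose most. Each of these was measured by 1 probe set, as were 19 of the 34 members, so no other probe set can check them.

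**Figure D1:**
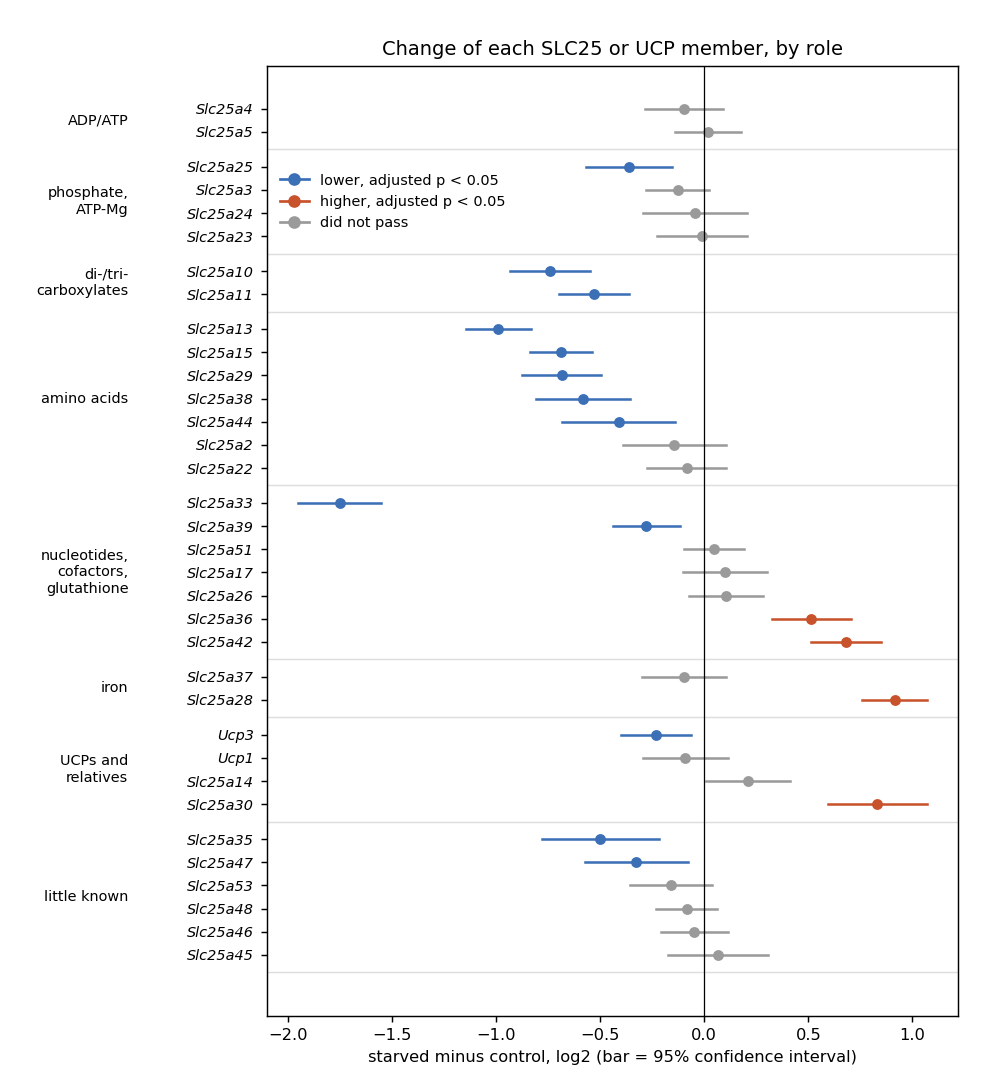
Difference of each of the 34 members, starved minus control on the log2 scale (horizontal axis), with the 95% confidence interval of the limma fit as a bar; members are grouped by substrate on the vertical axis, blue marks members called lower, red called higher and grey those that did not pass. The amino acid (7 measured) and dicarboxylate (2 measured) groups hold 7 of the 13 falls and no rise. The 4 rises are Slc25a28, Slc25a30, Slc25a42 and Slc25a36. Over all genes tested 22.0% were called lower and 22.1% higher.

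The promoter windows of the largest falls and the largest rises are shown because these 4 genes moved furthest in each direction. Each window runs from 250 bases before to 50 bases after a RefSeq transcript start (GRCm38.p6), 5′ to 3′ on the gene's own strand, with motif matches in capitals. The windows of Slc25a33 (chr4:149774218-149774517, minus strand) and Slc25a13 (chr6:6217124-6217423, minus strand) belong to members that fell. The windows of Slc25a28 (chr19:43674832-43675131, minus strand) and Slc25a30 (chr14:75786988-75787287, minus strand) belong to members that rose.
Slc25a33: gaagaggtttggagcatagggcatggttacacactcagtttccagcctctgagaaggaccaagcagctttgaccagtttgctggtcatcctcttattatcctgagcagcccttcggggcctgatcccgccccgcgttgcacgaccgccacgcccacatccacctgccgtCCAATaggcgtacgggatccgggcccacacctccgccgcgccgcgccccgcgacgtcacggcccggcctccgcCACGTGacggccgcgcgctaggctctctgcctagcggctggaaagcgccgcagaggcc
Slc25a13: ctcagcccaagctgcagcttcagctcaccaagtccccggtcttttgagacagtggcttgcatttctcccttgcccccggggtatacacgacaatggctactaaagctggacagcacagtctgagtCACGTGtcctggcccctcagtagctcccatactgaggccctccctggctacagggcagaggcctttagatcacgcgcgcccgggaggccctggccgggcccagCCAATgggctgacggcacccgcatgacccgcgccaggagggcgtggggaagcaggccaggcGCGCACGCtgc
Slc25a28: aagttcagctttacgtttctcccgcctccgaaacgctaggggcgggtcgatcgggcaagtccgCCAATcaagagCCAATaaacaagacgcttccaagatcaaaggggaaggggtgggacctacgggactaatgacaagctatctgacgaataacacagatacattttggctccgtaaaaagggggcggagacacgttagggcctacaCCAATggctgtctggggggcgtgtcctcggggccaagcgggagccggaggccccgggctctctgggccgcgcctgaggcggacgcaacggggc
Slc25a30: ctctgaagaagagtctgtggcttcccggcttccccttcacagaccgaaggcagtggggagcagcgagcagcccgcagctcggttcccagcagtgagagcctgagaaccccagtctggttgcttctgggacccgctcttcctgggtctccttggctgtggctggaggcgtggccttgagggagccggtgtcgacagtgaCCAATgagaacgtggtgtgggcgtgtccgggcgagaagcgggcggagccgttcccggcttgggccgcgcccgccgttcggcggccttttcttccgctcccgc

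Motifs of 7 factor families were searched on both strands in these windows. They were the E-box CACGTG (MYC, USF and TFEB families), GCGCANGC (NRF1), CCGGAAG (ETS factors such as GABP), TGATGNAA (ATF4 with C/EBP proteins), GTAAACA (FoxO), CCAAT (NF-Y) and GAAA followed after 2 bases by GAAA (the core of interferon-stimulated elements). A gene with several windows counts once if any holds the motif, and Slc25a2, Slc25a26, Slc25a35, Slc25a37, Slc25a44, Slc25a46 and Slc25a51 have none in the table used. The Slc25a33 window held an E-box at position −8 and a CCAAT at −81, counted from the transcript start, and the Slc25a13 window held them at −125 and −22. The Slc25a13 window also had the NRF1 sequence GCGCACGC at position 40 after the start. In the windows of Slc25a28 and Slc25a30 the only motif found was CCAAT, at 3 places and at 1. Of the 27 members with a window 5 (18.5%) had an E-box, against 8.09% of 27025 genes, and these were Slc25a33, Slc25a13 and Slc25a15 among the fallen, Slc25a36 among the risen and Slc25a14 among those that did not pass. CCAAT was present for 59.3% of members and 41.1% of all genes, NRF1 for 18.5% and 11.2%, and the ETS sequence for 18.5% and 9.93%. The ATF4 and FoxO sequences were in 0 of the 27 members' windows, against 4.51% and 4.05% of all genes, and the interferon element core was in 2 (7.41%, against 3.99%). The median GC content was 59.8% in the 36 windows of members and 52.7% in all 32851 windows. Its part in these shares was not tested. These matches describe letters in the windows and say nothing of binding.

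The carriers that move ADP and ATP and phosphate, which serve ATP export from the matrix, showed small differences, none of which passed. Slc25a4 (ANT1) exchanges ADP for ATP across the inner membrane and lay at 12.91, 12.87 and 12.95 in control and 12.95, 12.67 and 12.81 in starved arrays (difference −0.10, 95% CI −0.28 to 0.09, adjusted p = 0.368). Slc25a5 (ANT2), its counterpart in dividing cells, lay at 12.23, 12.18 and 12.22 and at 12.30, 12.15 and 12.23 (0.02, 95% CI −0.14 to 0.18, adjusted p = 0.848). The values of both genes overlapped between groups. Their difference within arrays, however, changed by only 0.12 and did not overlap, which gives the same exact two-sided permutation p of 0.1 (0.125 adjusted over 5 related pairs) as much larger differences described below. Slc25a3, which brings phosphate into the matrix, was lower in all 3 starved arrays (12.66, 12.63 and 12.61) than in any control array (12.82, 12.76 and 12.71), but its difference of −0.13 (95% CI −0.28 to 0.02) did not pass (adjusted p = 0.153). It was called lower with trend and robust settings of the variance model (adjusted p = 0.0257), with arrays centred on their medians (−0.18, adjusted p = 0.0396) and with either spike-in centring (−0.32 and −0.55). Slc25a5 was measured by 8 probe sets, mostly of a type that can bind several transcripts, and 0 of the 8 were called.

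The calcium-regulated ATP-Mg/phosphate carriers set the adenine nucleotide content of the matrix. Slc25a25 fell by 0.36 (SE 0.09, adjusted p = 0.0101), from 7.37, 7.46 and 7.16 in control to 7.07, 6.87 and 6.97 in starved arrays, groups that just fail to overlap. Slc25a24 did not pass (−0.05, 95% CI −0.29 to 0.20), and its starved arrays were spread from 8.36 to 8.83. Slc25a23 was dim (3.50 ± 0.07 and 3.49 ± 0.18).

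Both measured dicarboxylate carriers fell, where 22.0% of all genes were called lower. Slc25a10, which exchanges malate or succinate for phosphate, lay at 9.03, 8.88 and 8.80 in control and at 8.15, 8.26 and 8.07 in starved arrays. That is a 1.67-fold fall (log2 difference −0.74, SE 0.09, adjusted p = 7.31e-05), and its other probe set gave −0.77. Slc25a11, the oxoglutarate/malate carrier of the malate-aspartate shuttle, had control values of 9.89, 9.91 and 9.88 and starved values of 9.49, 9.28 and 9.33. It fell by 0.53 (SE 0.08, adjusted p = 0.000285), with nearly equal control arrays and every starved array well below them. The falls of these carriers differed by 0.21, and the values of this within-array difference overlapped between groups.

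Of 7 measured carriers of amino acids 5 fell (71.4%, against 22.0% of all genes) and 0 rose (against 22.1%). The role groups were chosen with earlier results of these data known. Slc25a13 (citrin) exports aspartate for glutamate and is the other carrier of the malate-aspartate shuttle. Its control arrays read 8.16, 8.17 and 8.15 and its starved arrays 7.25, 7.09 and 7.17, a 1.99-fold fall (log2 difference −0.99, SE 0.07, adjusted p = 3.15e-06). Slc25a13 had the tightest control values of this group, and the gap between groups was many times the spread within either. Slc25a15, the ornithine carrier that links cytosolic and matrix steps of ornithine metabolism, lay at 7.80, 7.71 and 7.71 in control and 7.05, 7.07 and 7.03 in starved arrays (−0.69, SE 0.07, adjusted p = 2.42e-05). Its second, dimmer probe set gave −0.74.

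Slc25a29 carries basic amino acids and is close to the ornithine carriers. It was measured by 5 probe sets, all called lower, with differences from −0.68 to −0.39, and the brightest went from 6.39, 6.28 and 6.21 to 5.69, 5.66 and 5.47 (adjusted p = 0.00012). Slc25a38 imports glycine for haem synthesis and went from 7.99, 7.71 and 7.66 to 7.34, 7.13 and 7.14, a fall of 0.58 (SE 0.10, adjusted p = 0.00107). Control replicate 1 stood above the other controls for Slc25a38, but the highest starved array remained below the lowest control. Slc25a44, a carrier of branched-chain amino acids, fell by 0.41 (SE 0.12, adjusted p = 0.0202) with a wide starved spread of 6.41, 6.96 and 6.69 against controls of 7.04, 7.12 and 7.13. The fall of Slc25a44 is less firm, since its other 2 probe sets did not pass (−0.16 and −0.24) and its call was lost without control replicate 2 (adjusted p = 0.0514), control replicate 3 (0.0567), starved replicate 1 (0.0501) or starved replicate 3 (0.056). The glutamate carrier Slc25a22 did not pass (−0.08, 95% CI −0.27 to 0.11). Slc25a2, a second ornithine carrier, was dim at 3.45 ± 0.18 and 3.31 ± 0.16.

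**Figure D2:**
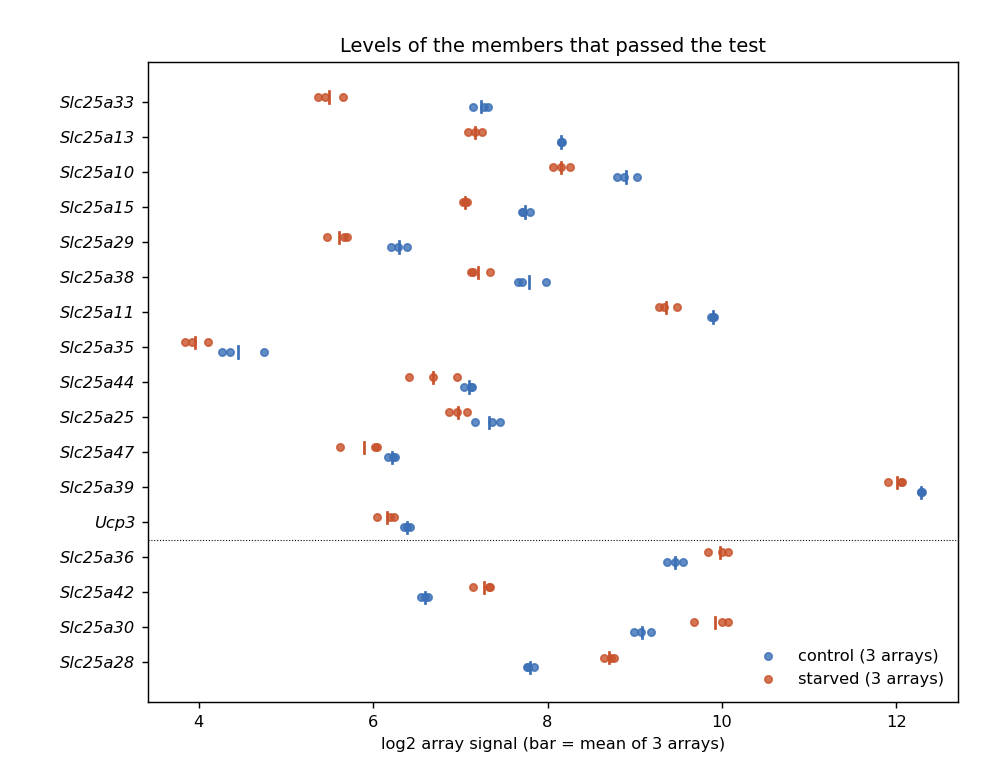
log2 array signal (horizontal axis) of the 17 members that passed the test, with 1 point per array (blue control, red starved) and a bar at the mean of each group of 3; genes above the dotted line fell and those below it rose. The groups do not overlap for any of the 17, which were picked by the test on these same arrays. Without that choice, groups lie apart for 54.0% of all genes. The widest gap is that of Slc25a33, whose starved arrays lie between 5.37 and 5.65 and control arrays between 7.14 and 7.31.

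Carriers of nucleotides and cofactors went both ways, with 2 of 7 lower, 2 higher and 3 that did not pass. These are 28.6% each, near the 22.0% and 22.1% of all genes called lower and higher. Slc25a33 and Slc25a36 both import pyrimidine nucleotides, which mitochondria need to make their DNA and RNA. For Slc25a33 the control arrays read 7.14, 7.27 and 7.31 and the starved arrays 5.65, 5.45 and 5.37. It fell 3.37-fold (log2 difference −1.75, SE 0.09, 95% CI −1.95 to −1.55, adjusted p = 4.69e-07) and was the only member that changed by 1 or more on the log2 scale. Slc25a36 moved the other way, from 9.37, 9.46 and 9.56 to 9.85, 10.08 and 10.00 (0.51, SE 0.08, adjusted p = 0.000742). The changes of the pair differed by 2.27 within arrays, with no overlap between groups. In an exact two-sided permutation test p was 0.1, the smallest that 3 arrays against 3 allow (0.125 adjusted over the 5 related pairs compared, which were chosen with the values known). The second probe set of Slc25a36 did not pass (0.16, adjusted p = 0.207), although all 3 starved arrays lay above all controls on it too, as groups lay apart for 52.2% of all probe sets.

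Slc25a42, which carries coenzyme A and adenine nucleotides, rose 1.60-fold, from 6.63, 6.55 and 6.59 in control to 7.33, 7.33 and 7.15 in starved arrays (0.68, SE 0.08, adjusted p = 6e-05). Its control values were close together and below every starved value. Slc25a39 takes up glutathione, and it fell by a small step on all 3 of its probe sets (−0.28, −0.36 and −0.32). On the brightest it read 12.29, 12.28 and 12.29 in control and 12.07, 12.06 and 11.90 in starved arrays (adjusted p = 0.0105). Slc25a26, the S-adenosylmethionine carrier (0.10, 95% CI −0.07 to 0.28), did not pass. Slc25a17 is a peroxisomal carrier of cofactors; its brightest probe set did not pass (0.10), and the dim second one was called lower (−0.42, adjusted p = 0.0132).

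Slc25a51, the carrier that brings NAD into mitochondria, gave readings that depended on the probe set. The brightest was near 10 in all arrays, at 10.05, 10.04 and 10.07 in control and 10.13, 10.09 and 10.07 in starved (0.05, adjusted p = 0.593). The second in brightness gave −0.13 and did not pass. The third, much dimmer, rose from 5.41, 4.97 and 5.16 to 5.91, 6.15 and 6.10 (0.87, SE 0.12, adjusted p = 0.000317 over 20380 probe sets, of which 40.9% were called, 20.4% higher and 20.5% lower). With the mean of the 3 probe sets in place of the brightest the gene was called higher (0.26, adjusted p = 0.00946).

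The mitoferrins import iron for haem and iron-sulphur clusters. Slc25a28 (mitoferrin 2), the form of most tissues, lay at 7.84, 7.78 and 7.76 in control and at 8.72, 8.76 and 8.64 in starved arrays. It rose 1.88-fold (log2 difference 0.91, SE 0.07, 95% CI 0.76 to 1.07, adjusted p = 4.98e-06). Slc25a37 (mitoferrin 1), best known from red cell precursors, read 7.28, 7.27 and 7.34 and then 7.11, 7.39 and 7.09, and did not pass (−0.10, 95% CI −0.30 to 0.10). The changes of the mitoferrins differed by 1.01 within arrays without overlap (exact two-sided permutation p = 0.1, 0.125 adjusted over the 5 pairs).

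Among the uncoupling proteins and their close relatives 1 rose, 1 fell and 2 did not pass. The rise and the fall are 25% each, near the 22.1% and 22.0% of all genes called higher and lower. Slc25a30 (KMCP1), an uncoupling protein relative first described in kidney, lay at 8.99, 9.08 and 9.19 in control and at 9.68, 10.07 and 10.00 in starved arrays. It rose 1.78-fold (0.83, SE 0.11, adjusted p = 0.000147), and 4 of its 5 probe sets were called higher (0.53 to 0.92). The remaining probe set was dim in all arrays, between 2.98 and 3.21. Slc25a14 (UCP5), abundant in brain, did not pass (0.21, 95% CI 0.01 to 0.41, adjusted p = 0.0856), and its change was 0.62 smaller than that of Slc25a30 (exact two-sided permutation p = 0.1, 0.125 adjusted over the 5 pairs). Ucp3, the muscle form, fell slightly, from 6.39, 6.36 and 6.43 to 6.04, 6.19 and 6.24 (−0.23, SE 0.08, adjusted p = 0.031), with −0.25 on its second probe set. This call did not survive leaving out any of 5 single arrays (without control replicate 1, 2 or 3, or starved replicate 1 or 2; adjusted p between 0.0512 and 0.0977). The muscle marker list had low means of 4.40 to 4.53 in control and 4.52 to 4.62 in starved arrays. Of its 8 markers 1 was called higher and 1 lower (12.5% each, against 22.1% and 22.0% of all genes). Acta1 rose (5.49 ± 0.30 to 6.86 ± 0.15), Ckm fell (5.74 ± 0.13 to 5.44 ± 0.08, adjusted p = 0.0147), and Myod1 did not pass (difference −0.23). The part of muscle markers in the Ucp3 result was not tested. Ucp1, the heat-producing protein of brown fat, was also dim, with control values of 3.67, 3.70 and 3.47 and starved values of 3.66, 3.50 and 3.41.

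**Figure D3:**
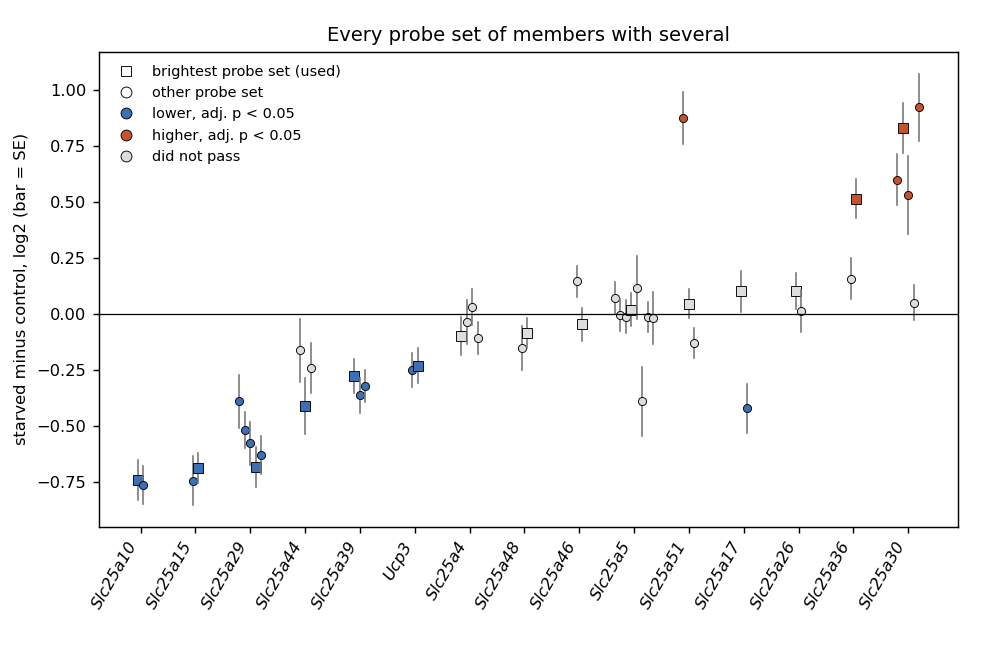
Difference of every probe set (vertical axis, starved minus control, log2, bar = SE) for the 15 members measured by several; squares mark the brightest probe set, which stands for the gene, and colours mark the call over all probe sets. All probe sets gave the same call for 10 of the 15, Slc25a51 holds a dim probe set at 0.87 beside others at 0.05 and −0.13, and no called probe set lies opposite to a called one used.

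The 6 little-known members were mostly dim. Slc25a35 fell by 0.50 (adjusted p = 0.00868), but its values lay between 3.84 and 4.75 in all arrays. Slc25a47, known from liver, fell by 0.33 (adjusted p = 0.0356), from 6.17, 6.25 and 6.22 to 6.02, 5.61 and 6.04. Its call was lost without any control replicate (adjusted p between 0.0575 and 0.0904) or without starved replicate 2 (adjusted p = 0.0781, difference −0.19). Slc25a46, an outer membrane protein linked to mitochondrial shape, did not pass and its 2 probe sets went to either side of 0 (−0.05 and 0.15). Slc25a45, Slc25a48 and Slc25a53 did not pass either, with differences from −0.16 to 0.07. Of the 34 members 8 were among the dimmest 40% of genes (a mean level below 6.15), and 3 of these were called, Slc25a29, Slc25a35 and Slc25a47. Over all genes tested 1007 of the 4957 that dim were called. The values carry no detection call, so for such members a signal from the gene and background binding cannot be told apart.

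Directions are relative to the scaling of the deposited values. Spike-in RNAs, which are meant to be added in fixed amounts, were higher in starved arrays, the poly-A set by 0.43 and the hybridization set by 0.19. With each array centred on the poly-A spike-ins 29 members were lower and 3 higher (75.2% and 6.94% of all genes, 82.2% in either direction), and with the hybridization spike-ins 22 were lower and 4 higher (49.2% and 13.5%, 62.7% in either direction). Each centring subtracts a single value per array, whose error all genes share. Slc25a28 (0.49), Slc25a30 (0.40) and Slc25a42 (0.25) were still called higher with the poly-A centring, whereas Slc25a36 was not (0.09, adjusted p = 0.436). All 17 members that had not passed lay below 0 under it, and 16 of them were called lower, Slc25a14 (−0.22) being the exception. For 6 of the 17 the sign had turned, namely Slc25a5 (−0.41), Slc25a14, Slc25a17, Slc25a26, Slc25a45 and Slc25a51.

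**Figure D4:**
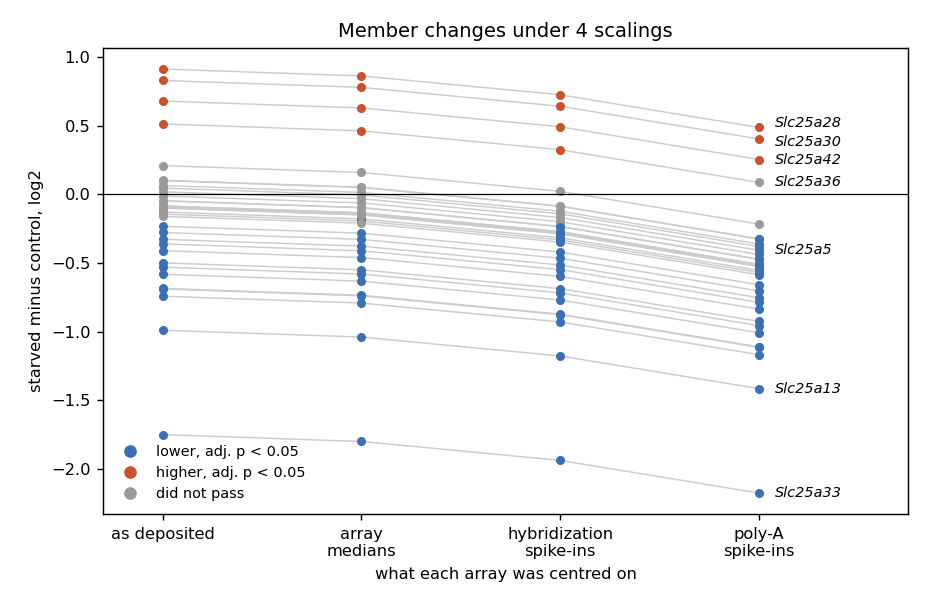
Difference of each member (vertical axis, starved minus control, log2) as deposited and with each array centred on its median, its hybridization spike-ins or its poly-A spike-ins (horizontal axis); each line is a gene, blue points are called lower, red called higher and grey did not pass. The order of members stays the same while the whole set shifts down, and with the poly-A centring 29 members are called lower and 3 higher.

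Most genes of a list for the import of carriers and other mitochondrial proteins fell. Carriers are made in the cytosol, received by the TOM complex, escorted by small TIM chaperones and inserted by the TIM22 complex. The list also holds parts of the TIM23 complex, which imports other proteins, Timm44 and Timm50 among them. Of 18 measured genes of the import list 15 fell (83.3%, against 22.0% of all genes), 0 rose and 3 did not pass (Timm44, Timm50 and Tomm7, named after their values were seen), with a median of −0.46. The small chaperones Timm8a1 (9.58 ± 0.01 to 8.39 ± 0.05, difference −1.19, adjusted p = 7.19e-07) and Timm10 (−1.05) fell most, followed by the insertase Timm22 (−0.86). Tomm40, the outer membrane pore, fell by 0.53. Either spike-in centring moves all these values further down.

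Other proteins that move ions and metabolites across mitochondrial membranes went both ways. Of 16 measured genes 7 were lower (43.8%, against 22.0% of all genes) and 5 higher (31.2%, against 22.1%). The mitochondrial sodium/calcium exchanger Slc8b1 rose by 0.99 (adjusted p = 3.25e-05) and Sfxn3, a serine carrier of the sideroflexin family, by 0.88. The porphyrin transporter Abcb6 (0.48), the outer membrane protein Tspo (0.40) and the outer membrane channel Vdac1 (0.36, named after its value was seen) also rose, of which Tspo and Vdac1 are smaller than the poly-A shift. Letm1, an inner membrane ion exchanger, fell by 0.56, Sfxn4 by 0.56, the pyruvate carrier subunit Mpc1 by 0.35 and Mtch1, an outer membrane member of the carrier fold, by 0.31.

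Regulators of mitochondrial biogenesis and markers of mitochondrial content were called lower in 6 of 14 cases and higher in 1. These are 42.9% and 7.14%, against 22.0% and 22.1% of all genes. In either direction 50% were called, against 44.1% of all genes. Pprc1, a growth-responsive coactivator related to PGC-1, fell by 1.17 (9.08 ± 0.16 to 7.90 ± 0.05, adjusted p = 4.58e-06). Polrmt, the mitochondrial RNA polymerase, fell by 0.56, the mitochondrial DNA packaging factor Tfam by 0.52 and the chaperonin Hspd1 by 0.52. Gabpa, a DNA-binding ETS factor, rose by 0.34, which is less than the poly-A shift. Citrate synthase Cs (0.12, adjusted p = 0.163) and the respiratory subunit Cox4i1 (−0.01, adjusted p = 0.941), both named after their values were seen, did not pass.

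**Figure D5:**
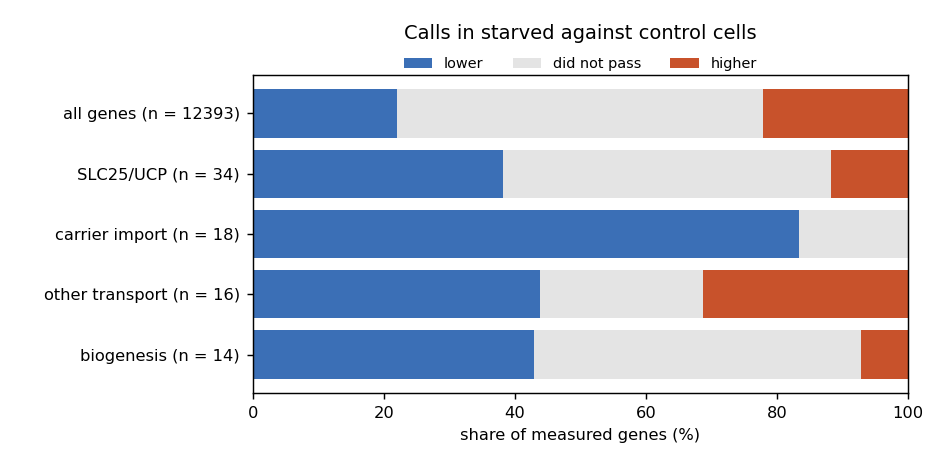
Share of measured genes (horizontal axis, percent) called lower (blue), called higher (red) or not passing (grey) for all 12393 genes, the 34 members and the 3 other mitochondrial lists (vertical axis). Members were lower in 38.2% and higher in 11.8%, and the import list lower in 83.3%, against 22.0% and 22.1% of all genes.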

How the data were processed

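Total RNA of 3 control and 3 starved MEF samples was labelled with biotin and hybridised to 1 array each, per the labels' protocols. The authors deposited log2 values per probe set, made with affy and RMA per the submitters' processing notes, each version not given in the sources used here. This method subtracts background, equalises the signal distribution of arrays and summarises probes, so a change in total RNA per cell is removed and folds of dim genes are compressed. Arrays have no sequencing depth, and precision is set by their number.

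Of 22690 probe sets 20380 had 1 gene in the platform annotation. The brightest probe set over all arrays stood for each of 12393 genes, with no filter on dim genes and no covariate. Two-sided tests came from lmFit and eBayes of limma 3.58.1, run under R 4.3.3. Motifs were searched in RefSeq promoter windows (GRCm38.p6) using pandas 2.3.3 under Python 3.11.15, with matplotlib 3.10.9 for the plots. Of these steps the limma fit was tested on simulated data. Members, role groups, lists and alternatives were chosen with earlier results of these data known. All measured members could be named, and from the other lists up to 4 genes per direction with the smallest adjusted p. Marker genes, and genes so described, were named after their values were seen. The alternatives covered probe set choice, dim genes, normalization, centring, variance model, array weights, the replicate block, single arrays left out and stricter thresholds.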

Additional observations from a re-analysis of the deposited data

How the results depend on the processing

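Over the 19 alternatives run, 10 of the 17 called members kept their direction and their call in all of them: Slc25a33, Slc25a13, Slc25a10, Slc25a15, Slc25a29, Slc25a38, Slc25a11, Slc25a42, Slc25a30 and Slc25a28 (Slc25a29 in the 18 that kept it). The other 7 lost the call in at least 1, and 0 of the 17 reversed. The count of members lower, 13, became 22 with centring on the hybridization spike-ins, 29 with the poly-A spike-ins, 8 at an adjusted p of 0.01 (14.4% of all genes lower) and 7 with treat against a fold change of 1.2 (7.58%), and lay between 10 and 12 with single arrays left out (17.6% to 22.1%). The count of members higher was 3 with the poly-A spike-ins (6.94% of all genes higher). It was 5 with averaged probe sets (21.1%), 5 of 26 with the dimmest 40% left out (36.1%), and 4 in the other alternatives. Members that had not passed gained a call in 16 cases with the poly-A centring, in 9 with the hybridization centring and in 1 each with the array medians, trend and robust settings, averaged probe sets and the dimmest 40% left out. The fit with the replicate block gave 4 higher and 13 lower, and it changed no call of a member. Same-numbered arrays of the groups did not deviate together (correlations of −0.00462, −0.022 and 0.00212), so they were not treated as pairs. Slc25a47 had no value once probe sets binding more than one transcript were dropped.

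Signs turned only among members that did not pass. Averaged over each gene's probe sets, Slc25a17 lay at −0.16, Slc25a46 at 0.049 and Slc25a5 at −0.029. Slc25a5 was also at −0.0048 without the probe sets binding more than one transcript and at −0.0308 with arrays centred on their medians, where Slc25a51 was at −0.0038. Slc25a23 was at 0.0446 with a further quantile normalization and at 0.0249 with array weights. Centring on the hybridization spike-ins gave −0.0867 for Slc25a17, −0.0845 for Slc25a26, −0.12 for Slc25a45, −0.17 for Slc25a5 and −0.14 for Slc25a51. Under the poly-A spike-ins Slc25a14 was at −0.22, Slc25a17 at −0.33, Slc25a26 at −0.32, Slc25a45 at −0.36, Slc25a5 at −0.41 and Slc25a51 at −0.38. With single arrays left out the values ran from −0.117 to 0.0467 for Slc25a23, from −0.0254 to 0.185 for Slc25a45, from −0.0188 to 0.0582 for Slc25a5 and from −0.173 to 0.0642 for Slc25a24. The cause of these turns was not tested.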
